A study of Homo sapiens with 36 samples.

Results

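The comparison set CTCF peaks of HEK293T cells treated with small interfering RNA (siRNA) against MBD2 (siMBD2) directly beside those of cells treated with siRNA against MBD3 (siMBD3). Its members were all peaks of the 2 pooled peak lists on chromosomes 1 to 22 and X. A peak was counted as shared when it overlapped a peak of the other list by 1 bp, whether or not the control list held it. The 26087 siMBD2 peaks and 25848 siMBD3 peaks merged into 33325 regions, against 54382 regions for the 6 lists of the series. Another 603 siMBD2 and 611 siMBD3 peaks lay on other contigs and were left out. Binding was measured by ChIP-seq, the sequencing of DNA that an antibody against CTCF pulls down, with 3 immunoprecipitates and 3 inputs in each of 6 conditions. The other conditions were siRNA against CHD3, CHD4 or CHD5 and the control siRNA, siNC. HEK293T is a human embryonic kidney cell line, and no group carried another labelled treatment or allele.

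MBD2 and MBD3 are paralogous methyl-CpG-binding-domain proteins, and a NuRD complex holds one or the other of them. NuRD moves nucleosomes with its CHD helicases and removes histone acetyl groups with its deacetylases. MBD2 binds methylated CpG, whereas mammalian MBD3 has little affinity for it. CTCF is a zinc-finger protein of insulators and chromatin loop anchors, and at some of its sites, among them the H19 imprinting control region, binding is blocked by CpG methylation.

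Each list pools the 3 replicates of a condition, so each condition is 1 value, no spread between replicates exists and no test between conditions was made. Intervals are exact Clopper-Pearson 95% intervals and cover counting error only. Expression of MBD2 and MBD3 was not analysed here, so the knockdowns themselves could not be checked. Fold, p and q are the authors' deposited values for each peak, fold being the enrichment at the summit over local background, used here to rank peaks within 1 list. A percentile is the peak's rank by fold in its own list, with 100 the strongest. Folds and percentiles of several lists are set side by side as descriptions, since the lists differ in depth, length and range of fold, and they show no change between conditions. The lists differed in depth, taken as the lowest local background implied by fold and p: 0.640 fragments per bp in siMBD2 and 0.374 in siMBD3, from 0.445 to 1.95 in the CHD knockdowns and 2.96 in siNC. The siMBD2 depth was 1.71 times the siMBD3 depth. Positions are hg19, 1-based. Peaks were not assigned to genes.

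The siMBD2 and siMBD3 lists were close in length and shared most of their peaks. Of the 33325 regions, 18540 (55.6%) were called in both lists, 7506 (22.5%) in siMBD2 alone of the pair and 7279 (21.8%) in siMBD3 alone of the pair. Counted as peaks, 28.8% of siMBD2 peaks had no siMBD3 peak (interval 28.2 to 29.3) and 28.2% of siMBD3 peaks had no siMBD2 peak (interval 27.6 to 28.7). These are called siMBD2-only and siMBD3-only peaks below. Moving the other list by 20000 bp left 0.924% of siMBD2 peaks and 0.936% of siMBD3 peaks with a partner. Nearly all shared regions, 18473 of 18540, held 1 peak of each list. Few peaks lay near the edge of the overlap rule. In siMBD2, 15 shared peaks overlapped a siMBD3 peak by under 50 bp (median fold 4.30) and 13 siMBD2-only peaks lay within 50 bp of one (median fold 4.27). In siMBD3 the same counts were 15 (median fold 4.08) and 13 (median fold 3.64). A further limit of 1 kb around each peak found a partner for 305 siMBD2-only and 357 siMBD3-only peaks.

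Peaks called in 1 of the lists were weaker than shared ones. The median fold of siMBD2-only peaks was 5.64, against 6.99 for shared siMBD2 peaks. In siMBD3 the medians were 5.30 and 7.20. The −log10 q showed the same order, with medians of 6.51 for siMBD2-only and 13.1 for shared siMBD2 peaks, and 4.63 for siMBD3-only and 10.9 for shared siMBD3 peaks. These peaks were also narrower, with a median width of 239 bp against 278 bp in siMBD2 and 221 bp against 251 bp in siMBD3. The middle 50% of folds overlapped between the classes, from 4.58 to 6.88 for siMBD2-only peaks and from 5.82 to 8.37 for shared siMBD2 peaks. Peaks with several summits were mostly shared. Of 351 such peaks in siMBD2, 21 were siMBD2-only (5.98%), and of 354 in siMBD3, 23 were siMBD3-only (6.50%).

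The share called in 1 list fell steadily with strength in both lists. In the weakest decile 62.0% of siMBD2 peaks had no siMBD3 peak (interval 60.1 to 63.8), and 75.2% of siMBD3 peaks had no siMBD2 peak (interval 73.5 to 76.9). In the strongest decile the shares were 9.70% (interval 8.59 to 10.9) and 6.62% (interval 5.69 to 7.65). The 2 weakest deciles held more siMBD3-only peaks and the 8 stronger ones more siMBD2-only peaks, with intervals that overlapped in deciles 3 to 5. Among the 100 peaks of highest fold, 97 siMBD2 peaks and 100 siMBD3 peaks were shared, and among the 1000 of highest fold, 936 and 954.

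**Figure D1:**
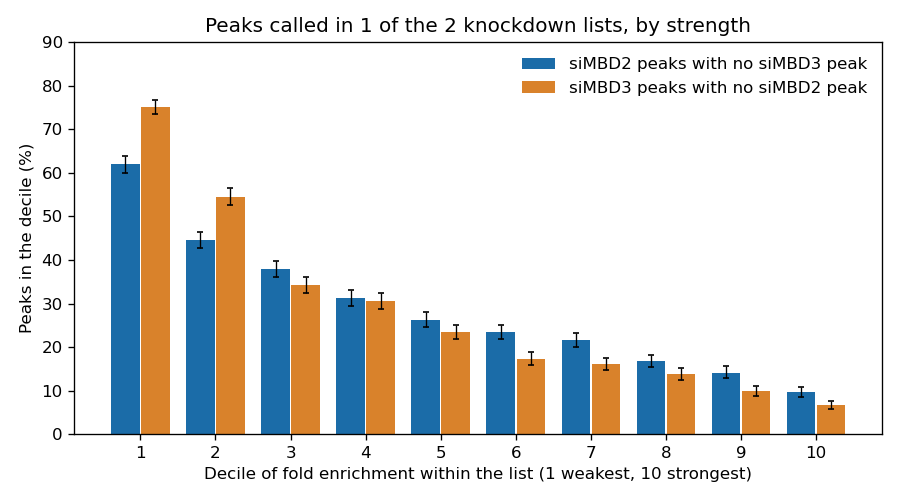
Share of siMBD2 peaks with no siMBD3 peak and of siMBD3 peaks with no siMBD2 peak (vertical axis, %) in each decile of fold within the list (horizontal axis, 1 weakest). Bars are single pooled lists and error bars are exact 95% binomial intervals; the shares run from 62.0% to 9.70% in siMBD2 and from 75.2% to 6.62% in siMBD3.

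Depth bears differently on the 2 directions. Thinning each siMBD2 summit pileup to the siMBD3 depth gave an expected 8.54% of siMBD2 peaks below the weakest siMBD3 p-value, against 28.8% with no siMBD3 peak. The median chance of a call at that depth was 0.925 for siMBD2-only peaks and 0.998 for shared siMBD2 peaks. Of the 18717 siMBD2 peaks with a chance above 95%, 17.6% were siMBD2-only. The siMBD3-only peaks were absent from the deeper list. Their median summit pileup was 8 fragments, against 19 for shared siMBD3 peaks, and in siMBD2 the medians were 13 and 25. The part of low pileup in the absence of siMBD3-only peaks was not tested. The expected share holds no variation between libraries, which these lists cannot give, so the gap is not a measure of loss beyond it.

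Shared peaks had nearly the same position but not the same rank. In the 18473 pairs the median distance between summits was 12 bp, and 98.0% of summits lay within 100 bp of each other. Percentiles of fold differed by a median of 21.0 points within a pair, and 26.7% of pairs lay within 10 points. The Spearman correlation of fold between the lists was 0.29 across these pairs, and 0.54 for −log10 q. The pairs share the cell line and the sites, and both lists are noisy at low pileup (median 25 fragments in siMBD2 and 19 in siMBD3), so the coefficients are descriptions.

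**Figure D2:**
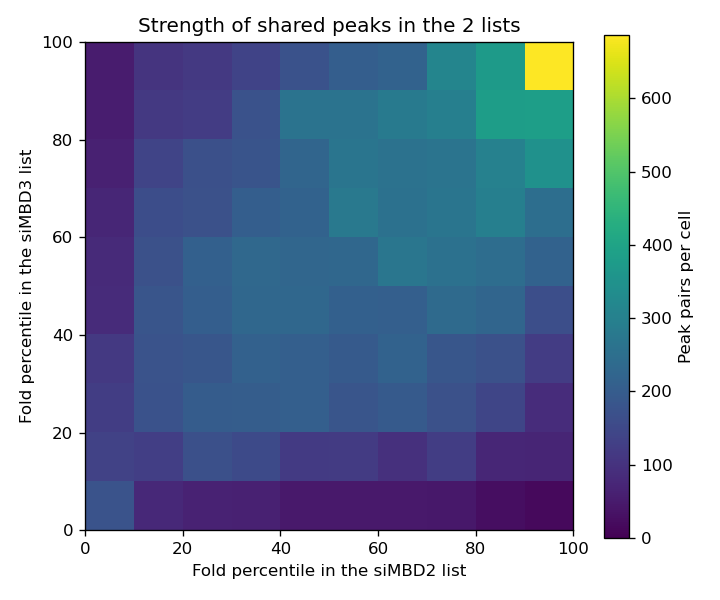
Fold percentile of the 18473 shared pairs in the siMBD2 list (horizontal axis) and in the siMBD3 list (vertical axis), in cells of 10 by 10 percentile points; colour is the number of pairs per cell. The fullest cell is the corner where both percentiles are above 90, and pairs spread widely elsewhere (Spearman 0.29).

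The strongest shared pairs came from 1 cluster on the X chromosome. Of the 10 pairs of highest mean percentile, 8 lay between 114960309 and 114999594 on chromosome X. The other two were chromosome 10 from 4857558 to 4858294 (fold 27.6 in siMBD2 and 34.3 in siMBD3) and chromosome 19 from 50610320 to 50610731 (fold 28.1 and 30.4). The highest siMBD2 fold of the list, 35.1, was at chromosome X from 114960309 to 114960789, where the siMBD3 fold was 31.5. This part of Xq23 is known for DXZ4, a macrosatellite of tandem units that each carry a CTCF site. Whether the peaks lie in that repeat was not checked against an annotation.

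Peaks of the cluster were regularly spaced in both lists. The cluster was the run with the most siMBD2 peaks on X when summits up to 10 kb apart were joined. It reached from 114953328 to 115010647 and held 35 siMBD2 peaks, 23 siMBD3 peaks and 22 siNC peaks. Both lists had 14 of their 100 strongest peaks there, all of them shared. The spacing of these 14 summits was 2.96 to 3.00 kb in siMBD2 and 2.97 to 3.01 kb in siMBD3. Their folds were 21.1 or more in siMBD2 and 27.9 or more in siMBD3. Between them the siMBD2 list held weaker peaks, 14 of which had no siMBD3 peak (fold 2.92 to 4.61) and 2 of these a siNC peak. The siMBD3 list held 2 peaks without a siMBD2 partner there (fold 3.07 to 3.58). The siCHD3, siCHD4 and siCHD5 lists held 37, 38 and 32 peaks in the cluster. Read placement in repeats depends on aligner settings, which the sources used here do not give.

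**Figure D3:**
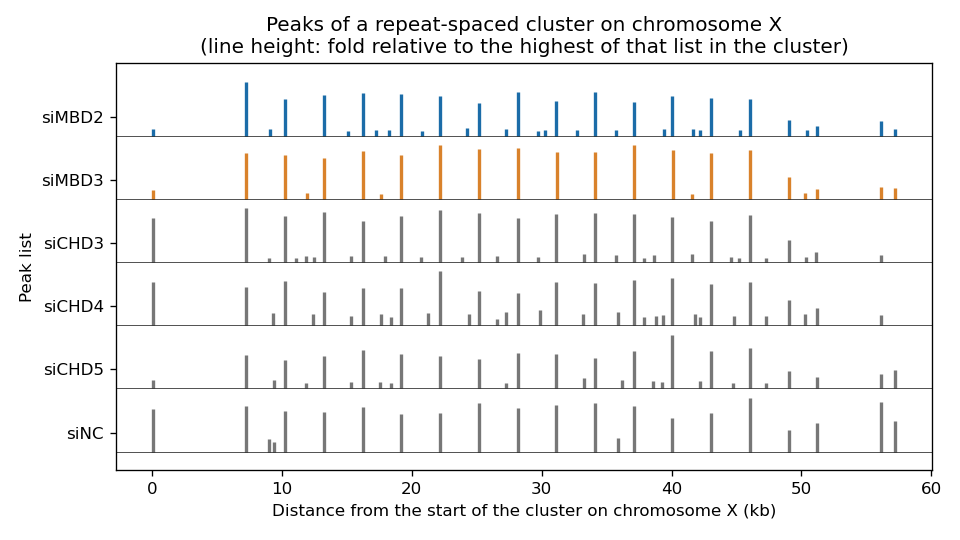
Summits of the peaks of all 6 lists in the chromosome X cluster, by distance from its start (horizontal axis, kb); line height is fold relative to the highest of that list within the cluster. The 14 tall summits of siMBD2 and siMBD3 stand about 2.99 kb apart at the same places. Counting tall and short lines, the cluster holds 35 siMBD2, 23 siMBD3, 37 siCHD3, 38 siCHD4, 32 siCHD5 and 22 siNC peaks. It was chosen by its number of siMBD2 peaks.

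Some shared pairs ranked high in 1 list and low in the other. In 1050 pairs the siMBD2 percentile was over 50 points above the siMBD3 percentile, and in 1338 pairs the reverse held. Pairs higher in siMBD2 were led by chromosome 2 from 96321297 to 96321581 (percentile 99.2 in siMBD2 and 6.24 in siMBD3) and chromosome 20 from 17663272 to 17663575 (98.7 and 6.61). Pairs higher in siMBD3 were led by chromosome 10 from 43882665 to 43883055 (percentile 1.14 in siMBD2 and 98.97 in siMBD3) and chromosome 8 from 75516241 to 75516580 (0.376 and 97.7). The chromosome 10 region was at percentile 99.6 in siCHD3, 98.7 in siCHD4 and 17.4 in siCHD5, against 95.7 in siNC. The other 4 leading pairs of that kind had siCHD3 percentiles from 98.4 to 99.2 and siCHD5 percentiles from 18.0 to 51.9, against siNC percentiles from 88.6 to 97.1. At all 5 the siMBD2 percentile was at most 2.15, which the choice of pairs by largest difference nearly fixed in advance. Their siMBD2 folds were 2.74 to 3.55 and their siMBD2 summit pileups 14 to 30 fragments, against a list median of 21. Fold is over local background, so these low percentiles are not low pileups. The part of local background in them was not tested.

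The ranks of these pairs in the remaining lists, which did not choose them, went different ways. Pairs over 50 points higher in siMBD2 had a median percentile of 58.8 in siCHD3 and 65.0 in siCHD5. Pairs over 50 points higher in siMBD3 had a median percentile of 71.4 in siCHD3 and 49.4 in siCHD5. Among all 18473 pairs the medians were 63.5 and 61.5. Each median covers only the pairs called in the list named. In siCHD3 these were 855 of 1050, 1122 of 1338 and 15049 of 18473, and in siCHD5 1026, 1245 and 17524. The medians in siCHD4 were 56.0 for pairs higher in siMBD2 and 63.5 for pairs higher in siMBD3, and in siNC 66.7 and 61.2. Over the 11811 regions called in all 6 lists, the Spearman correlation of fold was 0.36 for siMBD2 with siCHD5 and 0.18 for siMBD2 with siCHD3. For siMBD3 it was 0.20 with siCHD5 and 0.31 with siCHD3, and for siMBD2 with siMBD3 it was 0.26. The regions are shared by all coefficients, and depth differs between the lists, so no test of these orders was made.

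Peaks called in 1 of the lists were found in the control list to different extents. A siNC peak overlapped 73.3% of siMBD2-only peaks (5505, interval 72.3 to 74.3) and 58.0% of siMBD3-only peaks (4225, interval 56.9 to 59.2). Of shared peaks, 97.7% had one in both lists. Of all peaks, 90.7% in siMBD2 and 86.6% in siMBD3 had one. The siCHD5 list held 66.7% of siMBD2-only peaks (interval 65.6 to 67.8) and 44.1% of siMBD3-only peaks (interval 43.0 to 45.3), against 86.7% of all siMBD2 and 80.5% of all siMBD3 peaks. The siCHD3 list held nearly equal shares, 45.5% of siMBD2-only and 45.6% of siMBD3-only peaks, against 71.2% of all siMBD2 and 71.4% of all siMBD3 peaks. The siCHD4 list held 39.2% of siMBD2-only and 36.4% of siMBD3-only peaks, against 66.1% and 65.5% of all. The siNC and siCHD5 lists were the deepest of the 6 (2.96 and 1.95 fragments per bp), and the part of depth in these shares was not tested.

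Where the other lists did hold these peaks, their rank there also differed. The siMBD2-only peaks held by siCHD3 had a median percentile of 49.8 in that list, and the siMBD3-only peaks held by siCHD3 a median of 64.5, next to 63.7 for shared siMBD2 peaks. In siCHD4 the medians were 48.6 for siMBD2-only and 62.2 for siMBD3-only peaks, next to 54.5 for shared siMBD2 peaks. In siCHD5 the order was the other way, 44.7 for siMBD2-only and 39.4 for siMBD3-only peaks, and in siNC it was 47.6 and 41.1. Shared siMBD2 peaks had medians of 61.4 in siCHD5 and 63.4 in siNC.

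**Figure D4:**
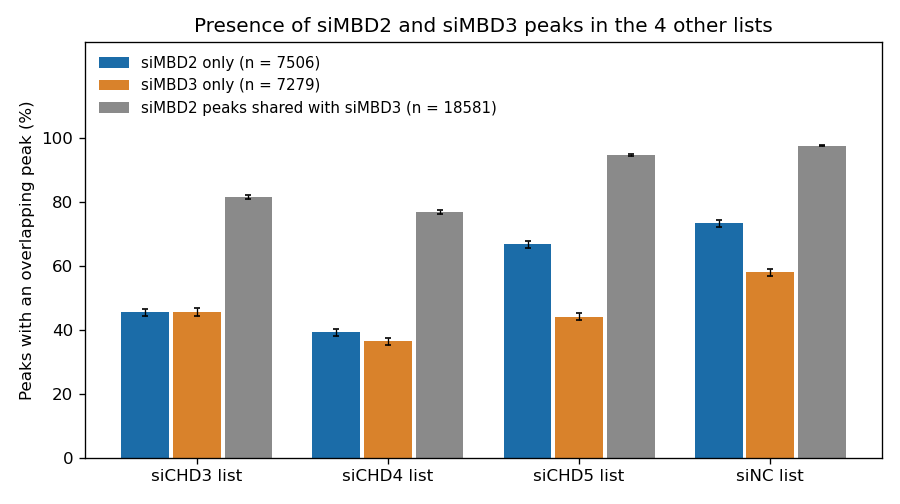
Share of siMBD2-only, siMBD3-only and shared siMBD2 peaks (vertical axis, %) that overlap a peak of the siCHD3, siCHD4, siCHD5 or siNC list. Error bars are exact 95% binomial intervals. The siMBD2-only and siMBD3-only bars are level for siCHD3 (45.5% and 45.6%) and furthest apart for siCHD5 (66.7% and 44.1%).

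Strength separated recurrent from isolated peaks. In the strongest 25% of siMBD2-only peaks by fold, 94.1% had a siNC peak and 1.76% had no peak in any of the 4 other lists, whereas in the weakest 25% the shares were 42.8% and 43.2%. In siMBD3-only peaks the strongest 25% gave 85.05% and 5.66%, and the weakest gave 27.3% and 54.7%. In all, 1297 siMBD2-only peaks (17.3%) and 2008 siMBD3-only peaks (27.6%) were found in none of the 4 other lists. By contrast, 1600 siMBD2-only peaks (21.3%) and 939 siMBD3-only peaks (12.9%) were found in all 4. Among regions called in both siMBD2 and siMBD3, 95 were in none of the other lists.

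The strongest siMBD2 peaks with no siMBD3 peak within 1 kb were also called elsewhere. The first was on chromosome 13, from 25302160 to 25302460, with a fold of 16.6 and percentile 99.8 in siMBD2, and percentiles of 91.1 in siCHD3, 86.9 in siCHD4 and 91.5 in siCHD5, against 78.2 in siNC. Next came chromosome 8 from 112112806 to 112113152 (fold 16.3, percentile 99.8 in siMBD2 and 31.4 in siNC) and chromosome 15 from 49093242 to 49093733 (fold 15.2, percentile 99.6 in siMBD2 and 33.3 in siNC). All 10 leading regions of this kind had a siNC peak, and 3 of them were called in all 4 other lists. Of all siMBD2-only peaks, 73.3% had a siNC peak and 21.3% were called in all 4 other lists. In the strongest quartile of siMBD2-only peaks by fold, 94.1% had a siNC peak. The 10 regions were chosen by fold, and the part of strength in their counts was not tested. Among siMBD2-only peaks in no other list, the highest fold was 10.2, on chromosome 1 from 249179177 to 249179410, followed by 9.42 on chromosome 10 from 129447999 to 129448306.

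The strongest siMBD3 peaks with no siMBD2 peak within 1 kb were led by chromosome 17 from 38632431 to 38632671. The fold there was 20.1 and the percentile 99.5 in siMBD3, with percentiles of 94.98 in siCHD3, 90.6 in siCHD4 and 41.2 in siCHD5, against 14.3 in siNC. Next was chromosome 12 from 112846246 to 112846450, with a fold of 18.6 and percentile 99.5 in siMBD3, and percentiles of 98.4 in siCHD3, 97.2 in siCHD4 and 28.2 in siCHD5, against 71.6 in siNC. Of the 10 leading regions, 8 had a siNC peak, 9 a siCHD3 peak and all 10 a siCHD4 peak. The 2 without a siNC peak were chromosome 4 from 165118016 to 165118355 (percentile 98.6 in siMBD3 and 91.7 in siCHD3) and chromosome 1 from 40598915 to 40599105 (percentile 98.5 in siMBD3 and 96.4 in siCHD3). Among siMBD3-only peaks in no other list, the highest fold was 12.8, on chromosome 4 from 140291350 to 140291547.

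A few shared peaks were absent from the other 4 lists. They were led by chromosome 7 from 100227018 to 100227251 (fold 9.01 in siMBD2 and 7.52 in siMBD3), chromosome 5 from 10346941 to 10347295 (9.15 and 6.89) and chromosome 2 from 111874638 to 111874867 (8.54 and 6.91). Their percentiles in siMBD2 were 86.3, 87.4 and 81.8, and in siMBD3 65.0, 53.4 and 53.8.

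Chromosomes differed in how many peaks each list held. Chromosome 22 had 534 siMBD2 peaks and 583 siMBD3 peaks, a ratio of 0.916, and chromosome 19 had 959 and 1015, a ratio of 0.945. Chromosome 18 had 430 siMBD2 peaks and 376 siMBD3 peaks, a ratio of 1.14, and the X chromosome 1352 and 1264, a ratio of 1.07. The ratio over all chromosomes was 1.01. The siMBD2-only share was 20.8% on chromosome 22 (interval 17.4 to 24.5) and 40.2% on chromosome 18 (interval 35.6 to 45.0), against 28.8% in the list. The siMBD3-only share varied less, from 24.7% on X (interval 22.3 to 27.2) to 34.3% on chromosome 13 (interval 30.4 to 38.4), against 28.2% in the list. Base composition of the peaks was not analysed here.

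**Figure D5:**
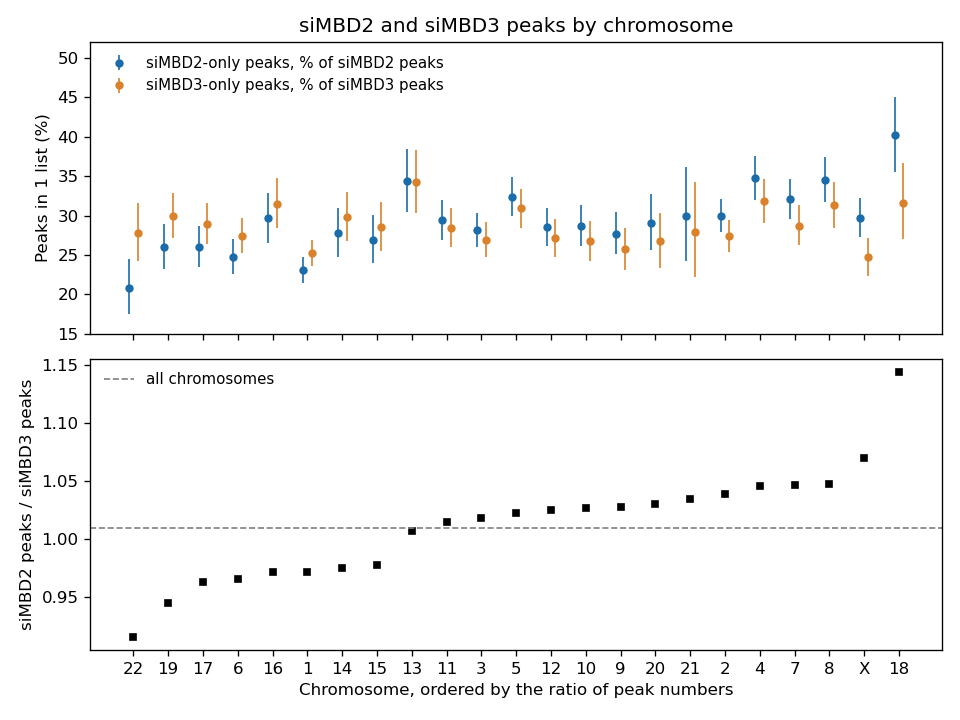
Upper panel, share of siMBD2 peaks that were siMBD2-only and of siMBD3 peaks that were siMBD3-only (vertical axis, %) on each chromosome, with exact 95% binomial intervals. Lower panel, number of siMBD2 peaks over number of siMBD3 peaks, with the ratio over all chromosomes (1.01) dashed; it runs from 0.916 on chromosome 22 to 1.14 on chromosome 18.

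Sparse stretches held larger unshared shares in both lists. In the 20% of siMBD2 peaks with the fewest neighbours of their list within 500 kb, 36.8% were siMBD2-only, and in the 20% with the most neighbours 23.4%. In siMBD3 these shares were 30.5% and 26.7%. Median fold was nearly level between sparse and dense siMBD2 peaks (6.58 and 6.58), while median local background was 1.88 fragments per bp in the sparse group and 2.63 in the dense group. In siMBD3 the median fold was 6.55 in the sparse and 6.92 in the dense group, and median background 1.15 and 1.64. The part of fold and background in these differences was not tested. The median distance to the nearest peak of the same list was 28.7 kb for siMBD2-only and 23.1 kb for shared siMBD2 peaks, and 24.8 and 23.1 kb for siMBD3-only and shared siMBD3 peaks.

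The 1 Mb bins that differed most in number were chosen after all 2859 bins with a peak were ranked. Bins with more siMBD2-only than siMBD3-only peaks were led by chromosome X from 114 to 115 Mb, which holds the cluster above (19 siMBD2-only and 3 siMBD3-only). Next were chromosome 4 from 9 to 10 Mb (13 and 0), X from 61 to 62 Mb (12 and 1), which lies beside the centromere, chromosome 8 from 86 to 87 Mb (21 and 10) and chromosome 2 from 89 to 90 Mb (15 and 4). Median siMBD2 percentiles were low in the bins of chromosome 4 (12.2), of X beside the centromere (0.301) and of chromosome 8 (4.60), and were 62.6 in the bin with the cluster and 58.7 in that of chromosome 2. In the chromosome 2 bin, 12 of the 15 siMBD2-only peaks had a siNC peak, near the 73.3% of all siMBD2-only peaks. The bins with more siMBD3-only peaks were led by chromosome 16 from 30 to 31 Mb (5 siMBD2-only and 19 siMBD3-only) and chromosome 1 from 228 to 229 Mb (3 and 16). Chromosome 6 from 31 to 32 Mb, in the major histocompatibility complex, had 1 siMBD2-only and 13 siMBD3-only peaks. Of these 13, 8 had a siCHD3 peak and 5 a siNC peak, against 45.6% and 58.0% of all siMBD3-only peaks. With 13 peaks, a difference from the list was not tested. Median siMBD3 percentiles were 44.0 in the bin of chromosome 16, 41.5 in that of chromosome 1 and 62.5 in that of chromosome 6.

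Loci where CTCF sites are well known were compared through windows placed at textbook hg19 positions, and their membership in genes was not checked against an annotation. The 14 imprinted domains held 14 siMBD2 peaks, of which 1 was siMBD2-only (7.14%, interval 0.181 to 33.9, against 28.8% of all siMBD2 peaks). They held 23 siMBD3 peaks, of which 10 were siMBD3-only (43.5%, interval 23.2 to 65.5, against 28.2% of all siMBD3 peaks). The 4 HOX clusters, which hold the homeobox genes that pattern the body axis, held 14 siMBD2 and 22 siMBD3 peaks. Of these, 2 of 14 siMBD2 peaks were siMBD2-only (14.3%, interval 1.78 to 42.8) and 10 of 22 siMBD3 peaks were siMBD3-only (45.5%, interval 24.4 to 67.8). With the 6 lists merged, 8 HOX regions were called in siMBD3 and not in siMBD2. All 4 intervals hold the share of the whole list, so neither set of loci was told apart from all peaks. The clustered protocadherins, neuronal adhesion genes whose alternative promoters bind CTCF, gave 9 of 15 siMBD2 peaks siMBD2-only (60.0%, interval 32.3 to 83.7) and 4 of 10 siMBD3 peaks siMBD3-only (40.0%, interval 12.2 to 73.8). The lower end of the first interval, 32.3, lies above the 28.8% of all siMBD2 peaks. The 15 peaks are neighbours in 1 window of 1 pooled list, and the loci were chosen with earlier results known. A difference of this locus from all peaks was therefore not tested.

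At the H19 and IGF2 domain, where CTCF binding to the unmethylated maternal allele insulates IGF2, the lists differed at the H19 end. The siMBD3 list had peaks on chromosome 11 from 2019649 to 2019834 (fold 5.09, −log10 q 3.97), from 2021055 to 2021278 (5.82 and 5.21) and from 2023287 to 2023576 (6.18 and 6.08), the stretch known to hold the imprinting control region. The siMBD2 list had none of these 3. The siNC list had the second of them (percentile 51.9 there and 32.6 in siMBD3), siCHD5 had the third (percentile 29.7 there and 39.7 in siMBD3), and siCHD3 and siCHD4 had none of the 3. A region just beyond them, from 2023755 to 2024344, was called in siCHD3, siCHD5 and siNC and in neither siMBD2 nor siMBD3. At the IGF2 end both lists had the region from 2172617 to 2173498, at percentile 90.3 in siMBD2 and 94.8 in siMBD3, against 72.3 in siNC. Peaks on chromosome 6 in the IGF2R window were all siMBD3-only, 3 against 0 in siMBD2, with siMBD3 folds from 5.71 to 5.91, and siNC had 2 of these 3. In the GNAS window, the region on chromosome 20 from 57456006 to 57456405 was called in siMBD2 (fold 7.08, percentile 59.3) and not in siMBD3. It was at percentile 97.7 in siCHD5, against 23.2 in siNC, and was also called in siCHD3 (fold 4.43).

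Rank by fold rather than presence differed at SNRPN. The region on chromosome 15 from 25154097 to 25155017 was called in all 6 lists. Its percentile was 31.1 in siMBD2 and 98.0 in siMBD3, 99.5 in siCHD3, 99.1 in siCHD4 and 55.7 in siCHD5, against 96.1 in siNC. The −log10 q there was 53.1 in siMBD2 at a fold of 5.70, against a median of 13.1 for shared siMBD2 peaks. In siMBD3 it was 84.3. The low siMBD2 percentile is of fold over local background and is not a low −log10 q. In the GNAS window the region on chromosome 20 from 57485735 to 57486207 was at percentile 6.11 in siMBD2 and 80.1 in siMBD3, 97.0 in siCHD3, 96.2 in siCHD4 and 16.0 in siCHD5, against 29.6 in siNC. SNRPN encodes a spliceosome protein from the paternal allele, and GNAS the alpha subunit of a stimulatory G protein.

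Within the HOX windows, HOXB held 4 siMBD2 and 10 siMBD3 peaks, with 6 of the 10 siMBD3-only. With the 6 lists merged, 4 HOXB regions were called in siMBD3 and not in siMBD2. HOXD held 2 siMBD2 and 5 siMBD3 peaks, with 3 of the 5 siMBD3-only. HOXA held 5 in each list, 1 of them unshared in each, and HOXC held 3 siMBD2 and 2 siMBD3 peaks. The strongest siMBD3-only region of HOXB was chromosome 17 from 46699135 to 46700297, with no siMBD2 peak and at percentile 89.2 in siMBD3 (fold 9.65), 96.4 in siCHD3, 93.5 in siCHD4 and 24.4 in siCHD5, against 66.9 in siNC. In the protocadherin window, siNC held 32 peaks, siCHD5 25, siMBD2 15, siCHD4 11, and siMBD3 and siCHD3 10 each. The whole lists held 36270 peaks in siNC, 31451 in siCHD5, 25358 in siCHD4 and 34319 in siCHD3. The part of list length and depth in these counts was not tested. The siMBD2 peak on chromosome 5 from 140891900 to 140892266 had a fold of 9.73, at percentile 91.4, with no siMBD3 peak and a siNC percentile of 43.3. At the targeted genes themselves, the MBD2 window held no peak in any list, and the MBD3 window held 3 siCHD3 peaks and none in siMBD2, siMBD3 or siNC.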

How the data were processed

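The build, per the submitters' processing notes, is hg19, and these notes name MACS2 2.1.2 and Bowtie2 2.3.4 along with SAMtools 1.9, deepTools 3.5.0, FastQC 0.11.7 and bedtools 2.25.0, without settings or filters. The authors deposited 6 narrow-peak lists, each named as 3 replicates called together. Deposited columns are the linear fold (a ratio), −log10 of p and of q, the summit offset and a display score, which was not used. The smallest −log10 q was 1.30 in siMBD2 and siMBD3. No read counts were used.

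Lines with the same start and end were made 1 peak, placed at their strongest summit. Overlaps required 1 bp and were checked with bedtools 2.31.1. Summit pileup and background were solved from fold (pileup plus 1 over background plus 1) and p (a Poisson upper tail); pileups matched p within 0.01% for 100% of siMBD2 and siMBD3 peaks. Depth is the smallest background. Each siMBD2 pileup was thinned binomially to the siMBD3 depth. Computation used Python 3.11.15, numpy 2.4.6, scipy 1.17.1 and pandas 2.3.3, and overlap, pileup and thinning steps were tested on simulated data.

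Named regions were the leading ones by fold or mean percentile of each class, the shared pairs of largest percentile difference, and all windows of 21 loci. The members, loci and lists were chosen with earlier results of these data known; the X cluster and 1 Mb bins were chosen after their values were seen. Alternatives were stricter q, other overlap rules, equal lengths, weighting for depth, all contigs and leaving out peaks over 1 kb. Sequences at peaks were not printed, since a genome of hg19 was not used here.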

Additional observations from a re-analysis of the deposited data

How the results depend on the processing

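No paired analysis was possible because each list pools the 3 replicates of its condition, and for the same reason no replicate could be left out. Equal list length, any peak within 1 kb, summits within 100 bp, reciprocal overlap of 50%, all contigs and leaving out peaks over 1 kb kept the counts of siMBD2-only peaks (7201 to 8244), of siMBD3-only peaks (6922 to 8005) and, where computed, of regions in both lists within 1.5 times the values above. Under the reciprocal-overlap and summit rules, the last count is of siMBD2 peaks with a partner. Weighting for depth, which applied to siMBD2 alone, gave 6085 siMBD2-only peaks. Keeping only peaks whose −log10 q reached 5 gave 6161 siMBD2-only and 4258 siMBD3-only peaks and 15862 shared regions. At 10 in both lists, 2836 siMBD3-only peaks and 8531 shared regions were left, with 5884 siMBD2-only peaks (40.8%) against 24.9% siMBD3-only. Peaks whose −log10 q reached 10, searched for in the whole other list, gave 1942 siMBD2-only (13.5%) and 926 siMBD3-only (8.14%), and the 10000 of smallest p gave 914 and 714.

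The share of siMBD2-only peaks with a siNC peak stayed above that of siMBD3-only peaks under every alternative computed. The shares were 90.6% and 82.9% at −log10 q of 5, and 97.7% and 95.6% at 10 in both lists. Peaks that reached 10, searched for in the whole other list, gave 95.6% and 90.9%. The 10000 of smallest p gave 97.0% and 90.8%. The shares were 70.0% and 54.1% with reciprocal overlap, 70.2% and 53.7% with summits, and 74.4% and 59.5% within 1 kb. Equal list length gave 74.5% and 58.2%, and weighting siMBD2 for depth gave 79.7%, against the unweighted 58.0%. A peak that is not called in a pooled list may be weak rather than absent, and no library could be set against another.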
